A study of Mus musculus with 4 samples.

Results

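Glucose transporters, hexokinases, later glycolytic enzymes and a pyruvate dehydrogenase kinase were followed across 3 mouse stem cell cultures through 10 genes: Slc2a1, Slc2a3, Hk1, Hk2, Pfkl, Pfkp, Aldoa, Pkm, Ldha and Pdk1. Members were all probe sets that the platform annotation paired with 1 of these symbols alone. They numbered 15 probe sets for 10 genes, of 10833 probe sets for 8251 genes with a single symbol. Of the 15 probe sets, 14 reached the median of an array on at least 1 array, so every gene had a measured probe set. Each of the 4 samples of total RNA had its own Affymetrix MG_U74Av2 array. R1 embryonic stem (ES) cells, an established mouse line with the inner cell mass given as its source, gave 3 of them. In 2 of these the cells had been cultured unattached as embryoid bodies for 48 hours, and the arrays are titled aggregation and suspension. In the other the cells had been cultured on gelatin under standard conditions for undifferentiated growth and are called adherent here. All R1 cultures were in DMEM with LIF and beta-mercaptoethanol. The fourth array held neurospheres from the E13.5 telencephalon, cultured in DMEM0 F12 with FGF2. Their labels list astrocytes, glia and oligodendrocytes as contaminating cell types. No mouse strain is named for the neurospheres, and nothing says that the embryoid body arrays, which carry 1 sample identifier, came from separate cultures. What the tests take as error is thus how far these 2 arrays lie apart, which can be technical and can hold the difference named in their titles.

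Glucose enters cells through facilitative transporters of the SLC2 family. It is then phosphorylated by hexokinases, committed to glycolysis by phosphofructokinase, split by aldolase, and turned into pyruvate by pyruvate kinase. Lactate dehydrogenase reduces pyruvate to lactate, whereas pyruvate dehydrogenase feeds it into the citric acid cycle, a step that pyruvate dehydrogenase kinases inhibit. Pluripotent cells and many dividing cells are known for high glycolytic flux, and several of these steps have isozymes that differ between tissues.

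Signals were set to a common trimmed mean of 500 in each array and are unitless. The median of an array was then 178 in adherent cells and 225 to 242 in the others, and the 10th percentile was 17.4 and 29.5 to 33.8. The ratio of 3' to 5' signal of the Gapdh control probe sets, a check of RNA integrity, lay between 0.804 and 0.946. With 4 arrays, precision is limited throughout. Markers followed the labels: 9 of 10 ES cell markers were lower in neurospheres than in R1 cells in limma's test, and 6 of 8 neural stem cell markers were higher. Over all features 11.9% were lower and 8.2% higher. Fabp7, which encodes a fatty acid carrier found in radial glia, read 41867 in neurospheres and 15.5 to 67.3 in R1 arrays. Cell type, medium and supplements differ together between neurospheres and R1 cells and cannot be told apart. In such bulk RNA, fewer cells of a type and less RNA per cell also cannot be told apart.

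The comparison of neurospheres with R1 cells set the neural cultures beside pluripotent ones. Both transporter genes, the hexokinase gene Hk2, the phosphofructokinase gene Pfkp and the kinase gene Pdk1 fell in neurospheres, with differences from -4.53 to -1.76 on the log2(signal + 32) scale. The other 5 genes, Hk1, Pfkl, Aldoa, Pkm and Ldha, did not pass the test. In limma's test at an adjusted p under 0.05, 5 of 10 genes were thus lower and 0 were higher, against 11.9% of all 6843 features lower and 8.2% higher. Without adjustment, 7 of the 10 had a p under 0.05 and were lower, as were 17.2% of all features, and 0 were higher, against 15.4% of all features. The median difference of the 10 genes was -1.35, and that of all features was 0.10. Without any test, 9 of the 10 genes had a lower signal in neurospheres than in each R1 array, as did 32% of all features, and 0 had a higher one, against 35% of all features. Ldha was the exception. Scaling the arrays to 1 median in place of 1 trimmed mean moved the median of all features to -0.13, a shift downwards in neurospheres, and gave 8 genes lower, with Pfkl, Aldoa and Pkm added. That scaling also moved the calls over all features from 561 higher and 816 lower to 482 higher and 1205 lower.

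**Figure D1:**
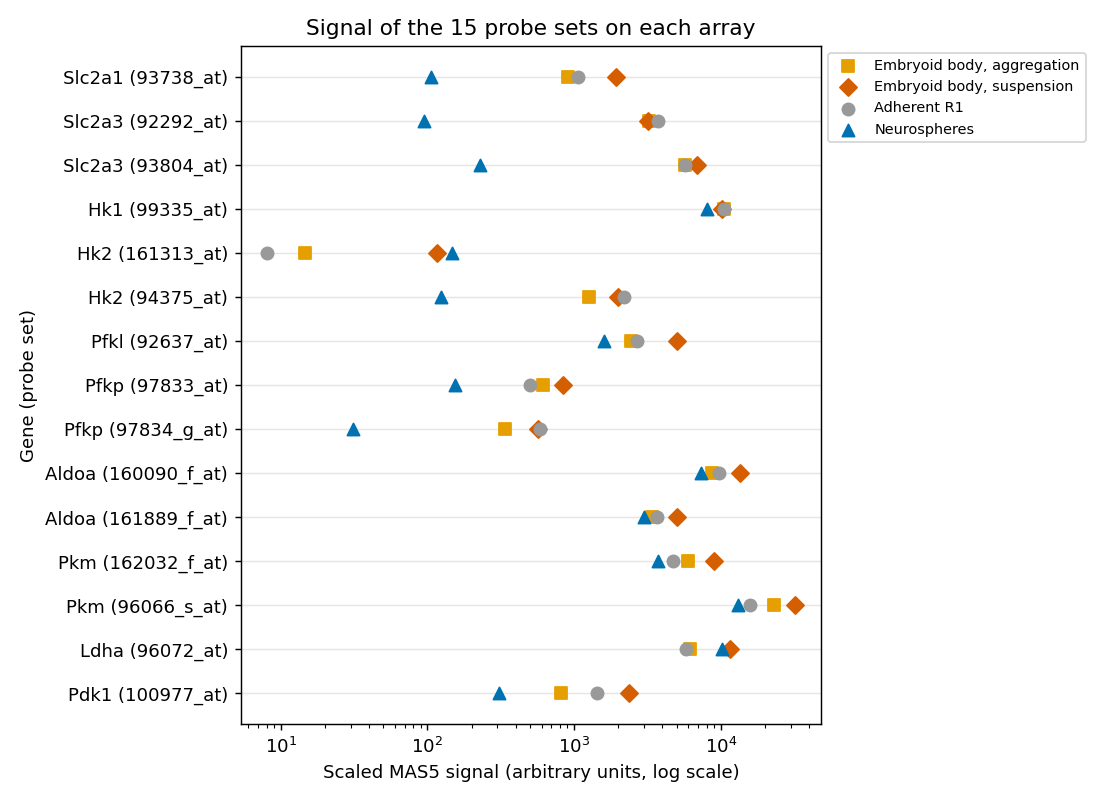
Scaled MAS5 signal (x axis, arbitrary units, log scale) of each of the 15 probe sets (y axis) on the 4 arrays, 1 point per array. Neurospheres (blue triangles) lie far to the left of the R1 arrays for Slc2a1, Slc2a3, the brighter probe set of Hk2, Pfkp and Pdk1, and close to or among them for Hk1, Aldoa and Ldha.

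The start regions of genes that moved together are shown with the core letters of the site that hypoxia-inducible factor is known to bind, a regulator of many genes of glucose metabolism. RefSeq's promoter table (GRCm38.p6) matched 9 of the 10 genes, with 15 windows of 300 bases that run from 250 before to 50 after an annotated start; the gene not matched was Slc2a3. The letters ACGTG and GCGTG were searched on both strands, where they read CACGT and CACGC, and overlapping matches were counted. At least 1 match stood in 11 of the 15 windows and in 43.8% of all 32851 windows of that length. The windows below are those of the 4 matched genes that fell and of Ldha, the only gene with a positive difference. For Pdk1 and Ldha, which have more than 1 start, the first listed window is given. Sequences run 5' to 3' and capitals mark the matches.
Slc2a1, chr4:119108495-119108794, plus strand: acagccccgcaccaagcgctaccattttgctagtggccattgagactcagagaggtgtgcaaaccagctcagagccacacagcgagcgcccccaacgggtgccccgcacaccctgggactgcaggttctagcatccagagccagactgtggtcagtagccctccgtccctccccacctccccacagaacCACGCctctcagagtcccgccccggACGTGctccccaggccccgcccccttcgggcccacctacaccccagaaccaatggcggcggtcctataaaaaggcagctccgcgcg
Hk2, chr6:82774405-82774704, minus strand: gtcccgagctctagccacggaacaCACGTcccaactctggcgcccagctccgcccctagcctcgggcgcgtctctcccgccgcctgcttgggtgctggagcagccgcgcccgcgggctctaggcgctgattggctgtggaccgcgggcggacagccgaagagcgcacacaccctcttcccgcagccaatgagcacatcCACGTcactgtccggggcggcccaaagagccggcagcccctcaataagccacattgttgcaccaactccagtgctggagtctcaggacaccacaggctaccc
Pfkp, chr13:6648722-6649021, minus strand: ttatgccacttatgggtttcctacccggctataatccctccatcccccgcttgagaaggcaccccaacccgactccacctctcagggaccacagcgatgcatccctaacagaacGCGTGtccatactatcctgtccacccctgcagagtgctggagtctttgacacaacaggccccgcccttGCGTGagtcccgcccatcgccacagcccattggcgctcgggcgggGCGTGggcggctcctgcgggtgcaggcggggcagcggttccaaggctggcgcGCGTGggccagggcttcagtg
Pdk1, chr2:71872974-71873273, plus strand: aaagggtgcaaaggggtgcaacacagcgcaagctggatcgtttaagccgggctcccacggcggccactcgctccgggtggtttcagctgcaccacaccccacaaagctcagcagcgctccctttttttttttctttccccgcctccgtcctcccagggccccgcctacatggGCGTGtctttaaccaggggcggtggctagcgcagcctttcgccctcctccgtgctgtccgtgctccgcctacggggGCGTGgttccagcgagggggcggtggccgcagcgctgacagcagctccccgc
Ldha, chr7:46845554-46845853, plus strand: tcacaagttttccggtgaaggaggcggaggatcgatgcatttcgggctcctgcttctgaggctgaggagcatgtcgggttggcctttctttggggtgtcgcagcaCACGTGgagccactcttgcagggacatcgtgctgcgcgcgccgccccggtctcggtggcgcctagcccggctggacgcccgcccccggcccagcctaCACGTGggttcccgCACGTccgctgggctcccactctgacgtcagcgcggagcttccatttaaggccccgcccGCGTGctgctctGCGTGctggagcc
There were 2 matches in the Slc2a1, Hk2 and Pdk1 windows, 4 in that of Pfkp and 7 in that of Ldha. The second window of Pdk1 held 0 matches and that of Ldha 2. Among the windows not printed of the other genes that did not pass, the highest count was 5 for Hk1, 2 for Pkm, 1 for Aldoa and 1 for Pfkl. Hk1, Pkm and Aldoa each also had a window with 0 matches. Matches thus stood in at least 1 window of every matched gene, whether it fell or not. A match is a description of letters, not of a bound site.

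Of the transporters, Slc2a3 encodes GLUT3, a high-affinity glucose carrier of neurons and early embryos. Its brighter probe set had a signal of 228 in neurospheres, against 5702 in aggregation, 5720.4 in adherent cells and 6858 in suspension. The R1 arrays lay close together, at 6280 ± 817 (SD, n = 2) for embryoid bodies, and 25.0 to 30.1 times above neurospheres. The fall was -4.53 ± 0.28 (SE, limma adjusted p = 1.08e-09), with a 95% interval from -5.12 to -3.94. The dimmer probe set gave 3249 and 3196 in the embryoid bodies, 3743 in adherent cells and 94.7 in neurospheres. It fell by 4.79 on the same scale when every probe set was tested as its own feature. Both Slc2a3 probe sets thus separated neurospheres from all R1 arrays by more than the R1 arrays differed among themselves.

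Slc2a1 encodes GLUT1, the widely expressed transporter of basal glucose uptake. Its probe set read 903 in aggregation, 1928 in suspension, 1067 in adherent cells and 105 in neurospheres. Neurospheres were the lowest array by 8.58 to 18.3 times, while the embryoid body arrays, at 1416 ± 725 (SD, n = 2), spread around the adherent value. The difference was -3.15 ± 0.44 (SE, adjusted p = 3.57e-05). Against the embryoid bodies alone it was -3.30 and against the adherent array alone -3.00, and it passed the test in both. Of 5 other glucose transporters with a probe set, Slc2a4 and Slc2a8 reached the signal filter and neither passed the test. Slc2a4, the insulin-responsive GLUT4, lay at 1.01 (adjusted p = 0.253), and Slc2a8 at 0.14 (adjusted p = 0.818).

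The hexokinases did not move alike. Hk2, the inducible hexokinase of muscle, tumours and other highly glycolytic cells, read 1271 in aggregation, 1986 in suspension, 2177 in adherent cells and 123 in neurospheres. It fell by 3.61 in neurospheres (SE 0.37, adjusted p = 1.03e-06), and each R1 array was 10.3 to 17.7 times above them. A second Hk2 probe set was below the array median on all 4 arrays, at 14.5, 116, 148 and 8.08 for aggregation, suspension, neurospheres and adherent cells. It was not tested and did not show the drop. Hk1, the constitutive hexokinase of brain and many other tissues, read 10471 in aggregation, 10235 in suspension, 10559.6 in adherent cells and 8049 in neurospheres. Its R1 values spanned a narrow range, and the difference of -0.38 ± 0.25 (SE, adjusted p = 0.311) had a 95% interval from -0.90 to 0.15. The intervals of Hk1 and Hk2, whose upper bound was -2.84 for Hk2, did not overlap, although the difference between the genes was not itself tested.

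Among phosphofructokinases, Pfkp encodes the platelet-type subunit and Pfkl the liver-type subunit. The brighter probe set of Pfkp read 612 in aggregation, 839 in suspension, 497 in adherent cells and 153 in neurospheres, and fell by 1.76 (SE 0.46, adjusted p = 0.00991). Its dimmer probe set read 336, 568, 582 and 31.2 for the same arrays in that order and fell by 3.09 (adjusted p = 6.81e-04 with every probe set as a feature), although the neurosphere value lay below the 10th percentile of that array. The Pfkp call ended without the aggregation array (-1.87, adjusted p = 0.0669), without the suspension array (-1.65, adjusted p = 0.128) and against the adherent array alone (-1.51, adjusted p = 0.0691). Pfkl read 2425 in aggregation, 5004 in suspension, 2667 in adherent cells and 1588 in neurospheres. Neurospheres were again the lowest array, but the difference of -0.93 ± 0.34 (SE) did not pass (adjusted p = 0.0627). It passed against the embryoid bodies alone (-1.12, adjusted p = 0.0362) and not against the adherent array (-0.74, adjusted p = 0.23). Pfkm, the muscle-type subunit and the third gene of this enzyme, rose by 1.79 (adjusted p = 0.0154), with 277 in aggregation, 583 in suspension, 199.9 in adherent cells and 1065 in neurospheres. That rise did not pass without the aggregation array (1.54, adjusted p = 0.126).

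Aldoa, the aldolase of muscle and most proliferating cells, read 8713 in aggregation, 13543 in suspension, 9689 in adherent cells and 7368 in neurospheres on its brighter probe set. Neurospheres lay just below the lowest R1 array, and the difference of -0.48 ± 0.28 (SE, adjusted p = 0.25) did not pass. The second Aldoa probe set lay at -0.36. Aldoc, the brain isozyme, moved the other way, from 194 in aggregation, 88.5 in adherent cells and 599 in suspension to 4279 in neurospheres (4.34, adjusted p = 7.47e-06). Aldoc is also a marker of astrocytes, which the labels name as contaminants. Of 8 astrocyte markers tested, 3 rose and 1 fell, against 8.2% of all features higher and 11.9% lower. Their summed signal was 22171 in neurospheres against 6164 to 9728 in the R1 arrays. That sum includes Aldoc itself, and Mt3 alone gave 12719 of it in neurospheres, so it rests mainly on these genes. Besides Aldoc these were Mt3 and Sparcl1, which rose, and Gja1, which fell. Without detection calls, none of the 8 could be called present or absent in neurospheres. Gfap, a defining marker singled out after its values were seen, was at 384 in neurospheres and 130 to 215 in R1 arrays and did not pass (1.15, adjusted p = 0.247). Of 4 oligodendrocyte markers 1 rose, against 8.2% of all features, with a summed signal of 2200.2 in neurospheres and 753 to 1689 in R1 arrays. The part of such cells in the Aldoc value was not tested.

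Pkm encodes pyruvate kinase of the M1 and M2 forms, and its probe sets do not name a splice form. The brighter one read 23168 in aggregation, 31894 in suspension, 15882 in adherent cells and 13119 in neurospheres. Neurospheres were lowest but close to adherent cells, and the difference from R1 cells was -0.66 ± 0.27 (SE, adjusted p = 0.0921). Against the embryoid bodies alone it was -1.05 and passed (adjusted p = 0.0133). Against the adherent array it was -0.28 and did not (adjusted p = 0.578). The second Pkm probe set kept the same order of arrays and lay at -0.64. Both Pkm and both Aldoa probe sets are of classes, _s_at and _f_at, that can detect related transcripts.

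Ldha, the lactate dehydrogenase subunit that favours lactate formation, did not follow the transporters. Its signal was 6186 in aggregation, 11519 in suspension, 5789 in adherent cells and 10213 in neurospheres. Neurospheres thus lay inside the range of the R1 arrays, above adherent cells and aggregation and below suspension. The difference of 0.54 ± 0.30 (SE) did not pass (adjusted p = 0.227). Ldhb, the subunit abundant in heart and brain, lay at 0.65 (adjusted p = 0.114). Ldhb passed against the adherent array alone.

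Pdk1 encodes a kinase that inhibits pyruvate dehydrogenase and so limits entry of pyruvate into mitochondrial oxidation. It read 818 in aggregation, 2355 in suspension, 1440.5 in adherent cells and 307 in neurospheres. Neurospheres were the lowest array, while the embryoid body arrays, at 1586 ± 1087 (SD, n = 2), lay on either side of the adherent value. The fall of 2.09 (SE 0.45, adjusted p = 0.00242) also passed without either embryoid body array (-2.47 and -1.72). It did not pass when limma was fitted without its intensity trend (adjusted p = 0.129), nor did Pfkp (adjusted p = 0.0746). Slc2a1, Slc2a3 and Hk2 passed in all 15 alternatives tried, with differences from -3.48 to -2.65, from -4.77 to -4.21 and from -3.91 to -3.14.

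**Figure D2:**
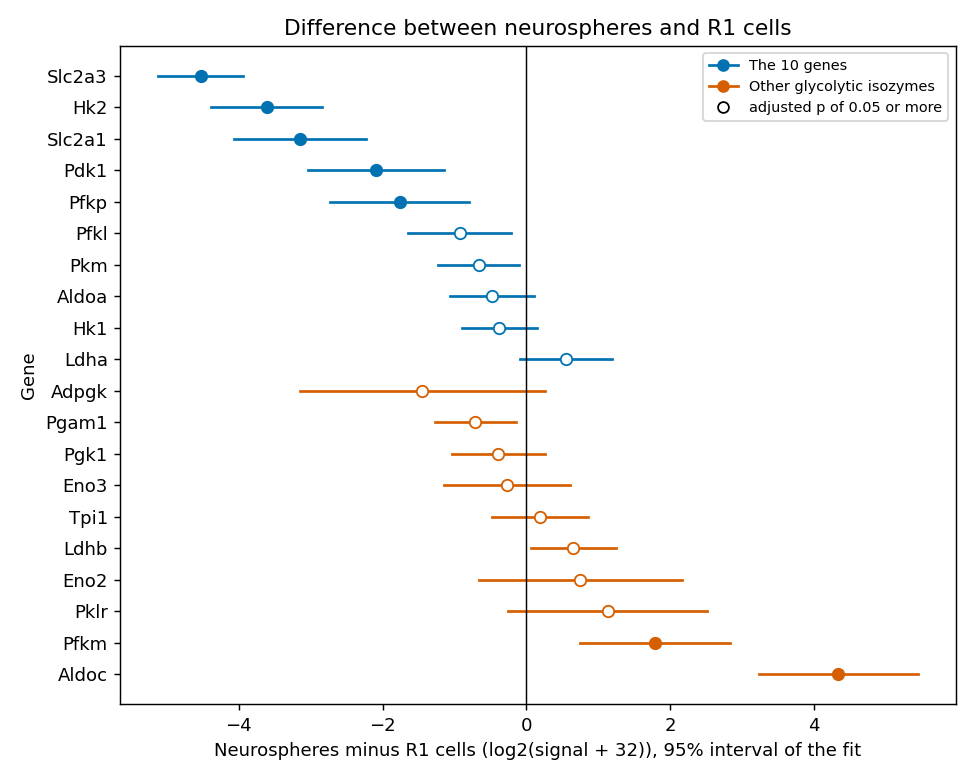
Neurospheres minus R1 cells on the log2(signal + 32) scale (x axis) for the 10 genes (blue) and 10 other glycolytic isozymes tested (orange), with 95% intervals from limma. Filled points passed the test: 5 of the 10 genes are lower, and Pfkm and Aldoc are higher.

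Most genes that fell had dim neurosphere signals. For Slc2a1, Slc2a3, Hk2 and Pfkp the neurosphere value lay below that array's median of 242, and for the probe sets used it lay above its 10th percentile of 33.8. Tested against the embryoid bodies alone, 7 of 10 genes were lower (10% of all features), with Pfkl and Pkm joining the 5. Against the adherent array alone 4 were lower (10.6% of all features), without Pfkp. These comparisons share the neurosphere array. With every probe set as its own feature, 7 of the 14 member probe sets that reached the filter were lower, against 11.6% of 8031 probe sets.

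Genes of neighbouring pathways were counted in the same fit. Beside the counts of all lists that follow, 8.2% of all features rose and 11.9% fell, with a median of 0.10. For other glycolytic isozymes, 12 had a probe set and 10 were tested, of which 2 rose and 0 fell (median 0.42). Those 2 were Aldoc and Pfkm. Tpi1 (0.19), which interconverts triose phosphates, and Pgk1 (-0.39), the kinase that makes the first ATP of the lower pathway, did not pass. The Gapdh control probe set at the 3' end, for another glycolytic enzyme and left out of the fit, was lowest in neurospheres. It read 23171 there, 27385.5 in adherent cells, 47904 in suspension and 57111.5 in aggregation. Of 17 citric acid cycle genes, 5 rose and 0 fell, with a median of 0.60. The risers were the citrate synthase gene Cs (1.29), the succinate dehydrogenase subunit genes Sdhb (1.01), Sdhc (0.89) and Sdhd (1.71), and the fumarase gene Fh1 (1.15). Each of them passed against the embryoid bodies alone. Against the adherent array alone Cs (1.27) and Sdhd (1.92) passed, and Sdhb (0.92), Sdhc (0.82) and Fh1 (1.03) did not. Sdhd, which anchors the complex in the mitochondrial membrane, read 2273 in aggregation, 1986 in suspension, 1594 in adherent cells and 6112 in neurospheres. Neurospheres were the highest array for it, as they were for 35% of all features. Of 8 pentose phosphate genes, 2 rose and 0 fell (median 0.30). They were Tkt, transketolase (1.17), and Pgls, the lactonase (1.13).

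In the list of pyruvate and lactate fate 1 of 7 genes fell and 0 rose, with a median of 0.044. The gene was Pdhb, a subunit of pyruvate dehydrogenase (-1.23), which read 2378 and 1513 in embryoid bodies, 4627 in adherent cells and 1245 in neurospheres. Of 7 genes of glycogen metabolism and gluconeogenesis, 1 rose and 2 fell (median 0.42). Pgm1, a phosphoglucomutase, rose by 1.09, and Gys1, glycogen synthase of muscle, and Pck2, the mitochondrial phosphoenolpyruvate carboxykinase, fell by 1.10 and 1.16. The dimmer Pck2 probe set lay at -0.81 and did not pass when every probe set was its own feature. Against the embryoid bodies alone Gys1 lay at -0.60 (adjusted p = 0.192), Pck2 at -0.30 (adjusted p = 0.663) and Pdhb at -0.60 (adjusted p = 0.243), and none of them passed. All of these passed when set against adherent cells only, at -1.60 for Gys1, -2.03 for Pck2 and -1.87 for Pdhb. Pgm1 passed against neither alone. Pfkfb3, an activator of phosphofructokinase through fructose bisphosphate, was the only tested gene of its list of 4 on the array and lay at -0.088 (adjusted p = 0.946).

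Of 10 regulators of glycolytic genes, 3 rose and 2 fell (median 0.57). Mycn, the N-Myc transcription factor, fell by 5.28, to 36.1 in neurospheres from 2210.1 in aggregation, 2862 in adherent cells and 2549 in suspension. Its second probe set was too dim to be tested. Hif1a, the oxygen-regulated subunit of hypoxia-inducible factor, fell by 0.85 (adjusted p = 0.0315). The fall passed against the adherent array alone (-1.25) and not against the embryoid bodies alone (-0.45, adjusted p = 0.311). A second probe set of Hif1a did not pass (-0.69), and both are of the _f_at class, which can detect related transcripts. Egln1, a prolyl hydroxylase that marks Hif1a protein for degradation, rose by 2.28. Egln1 passed neither against the embryoid bodies alone (2.07) nor against the adherent array alone (2.48). The kinase genes Akt1 and Akt2, which act downstream of growth factor receptors, rose by 2.66 and 1.60. Myc did not pass (1.04, adjusted p = 0.301). The calls of Aldoc, Mycn and Akt1 held in every alternative tried, while 15 of the 18 called genes of these lists lost the call in at least 1. Without the aggregation array 14 calls ended, with values of 1.54 for Pfkm, -1.07 for Pdhb, 1.08 for Pgls, 1.07 for Tkt, -1.08 for Gys1, 0.95 for Pgm1 and -1.13 for Pck2. In the same fit Cs lay at 1.27, Sdhb at 0.99, Sdhc at 0.84, Fh1 at 1.03, Hif1a at -0.80, Egln1 at 1.79 and Akt2 at 1.37. Without the suspension array 9 ended, with values of 1.17 for Pgls, 1.26 for Tkt, -1.12 for Gys1, 1.23 for Pgm1, -1.20 for Pck2, 1.03 for Sdhb, 0.93 for Sdhc, 1.26 for Fh1 and -0.90 for Hif1a. Both fits treated all R1 arrays as 1 group, and 9 of these calls, of Pfkm, Pdhb, Pgls, Gys1, Pgm1, Pck2, Sdhb, Sdhc and Hif1a, also ended in such a fit with all arrays.

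**Figure D3:**
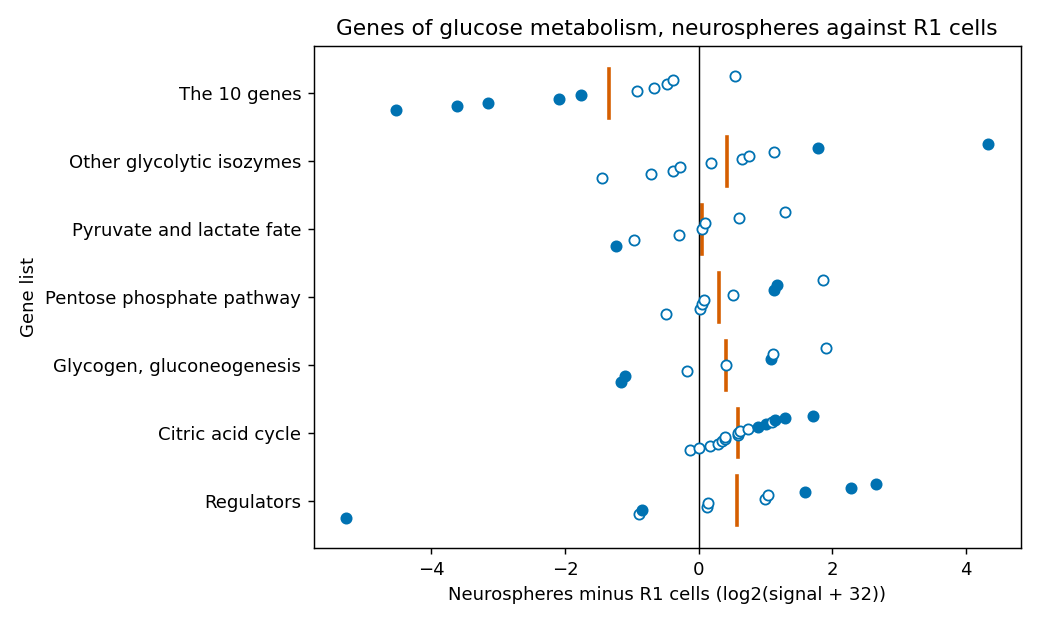
Neurospheres minus R1 cells on the log2(signal + 32) scale (x axis) for the tested genes of 7 lists of glucose metabolism (y axis), 1 point per gene, with filled points for genes that passed limma's test and an orange bar at the median. The median of the 10 genes is -1.35, and those of the other 6 lists drawn lie between 0.044 and 0.60, while fructose bisphosphate regulators (1 gene tested, at -0.088) and other glucose transporters (2 tested, median 0.57) are not drawn.

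The comparison of embryoid bodies with adherent cells set unattached against attached culture of the same line. None of the 10 genes passed limma's test in either direction, against 0.0877% of all features lower and 0.263% higher. Before adjustment, 1 of the 10 had a p under 0.05 on the higher side, near the 8.51% of all features, and 0 had one on the lower side, against 5.86%. That gene was Pkm, at 0.77 ± 0.28 (SE, adjusted p = 0.227), and both of its embryoid body values lay above the adherent value. Ldha followed at 0.54 (95% interval from -0.13 to 1.21) and Pfkp at 0.50 (-0.51 to 1.51), so that sizeable differences still lie inside these intervals. Hk1 lay at -0.028 (-0.58 to 0.52) and Slc2a3 at 0.13 (-0.48 to 0.74). Hk2 was the gene with the lowest value, at -0.45 (-1.25 to 0.36), and both embryoid body arrays were below the adherent array. For Slc2a1 (0.30), Pfkl (0.38), Aldoa (0.16) and Pdk1 (-0.048) the adherent value lay between the embryoid body arrays. The same held for Slc2a3, where the adherent value was close to that of aggregation.

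The embryoid body arrays differed from each other, with 1 array for each title and therefore no test. Their deposited values also differed in scale, by 45.5-fold, which cannot be told apart from the difference named in the titles. Aggregation shared its low scale with neurospheres, and suspension its high scale with adherent cells. The suspension array had the higher signal for 9 of 10 genes, against 51.4% of all features, and it was at least 2-fold higher for 3 of 10, against 9.73%. The 3 genes were Pdk1 (2.88-fold), Slc2a1 (2.14-fold) and Pfkl (2.06-fold). Ldha was 1.86-fold higher, Hk2 1.56-fold, Aldoa 1.55-fold, Pkm 1.38-fold, Pfkp 1.37-fold and Slc2a3 1.20-fold. Hk1 was the exception, at 0.978 times the aggregation value, and the dimmer Slc2a3 probe set lay at 0.984. The remaining dimmer probe sets of Pfkp, Aldoa and Pkm were higher in suspension, at 1.69-fold, 1.48-fold and 1.52-fold. The median of the 10 genes was 0.63 on the log2 scale, and that of all features was 0.019. Suspension was the highest of the R1 arrays for 8 of 10 genes, as it was for 35.6% of all features. The exceptions were Hk1 and Hk2, for which adherent cells were highest.

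**Figure D4:**
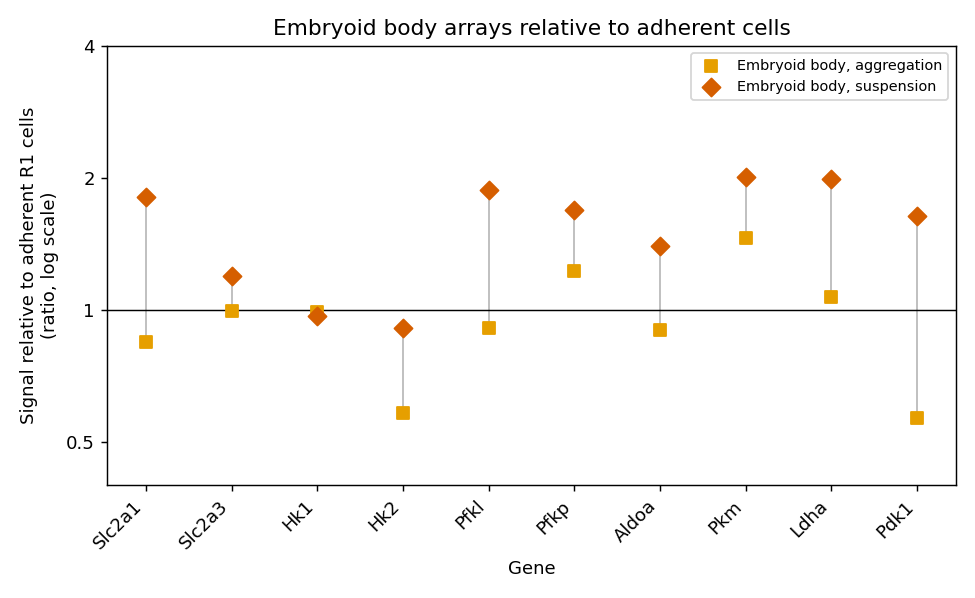
Signal of the aggregation and suspension embryoid body arrays relative to adherent R1 cells (y axis, ratio on a log scale, 1 point per array) for the 10 genes (x axis). Suspension lies above aggregation for 9 of 10 genes, and for Slc2a1, Slc2a3, Pfkl, Aldoa and Pdk1 the arrays lie on opposite sides of the adherent value, with Slc2a3 in aggregation close to it (0.997).

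Of the 10 other glycolytic isozymes tested, 8 were higher in suspension, with a median of 0.91 on the log2 scale. The 4 that were at least 2-fold higher, Adpgk, Pfkm, Aldoc and Pklr, were named for that size after their values were seen. In aggregation Adpgk (70.9), Aldoc (194) and Pklr (82.6) lay below that array's median of 225, and Pfkm (277) above it. Another Pklr probe set, too dim for the filter, went the other way, at 71.0 in aggregation and 64.6 in suspension. Pgk1 read 5403 in aggregation and 10072 in suspension, and Tpi1 read 2854 and 5443. Both adherent values, 4713 for Pgk1 and 3507 for Tpi1, lay below suspension. Of 17 citric acid cycle genes, 11 were higher in suspension, with Idh3b alone at least 2-fold higher (median 0.083), and of 8 pentose phosphate genes 3 were higher (median -0.061). The Gapdh control probe set at the 3' end, which detects another glycolytic enzyme, went against this order, at 0.839 times its aggregation signal in suspension. The ratio of 3' to 5' signal of the Gapdh control was 0.880 in aggregation and 0.893 in suspension. The ES cell markers summed to 63244 in aggregation and 73494 in suspension.

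The genes with the most similar profiles were found by the distance between log2 values over the 4 arrays, each centred on its own mean, among all named genes tested. Profiles over 4 arrays carry little information, so these are descriptions. Slc2a3 lay nearest to Csrp2 (distance 0.25), Mov10 (0.33) and Pltp (0.37). Slc2a1 lay nearest to Pdxdc1 (0.40), Stx3 (0.40) and Ash2l (0.44), and Hk2 to Tfpi (0.20), Fntb (0.23) and Enah (0.24). Pdk1 had its nearest profile in Anxa4 (0.31), Pfkp in Myrf (0.15), and Pfkl in Mcam (0.11). Ldha was nearest to Pxn (0.06), Pkm to Stat5a (0.10), Aldoa to Ddx10 (0.06) and Hk1 to Daglb (0.04). Among the 10 genes themselves, the closest profiles were those of Hk1 and Aldoa (0.51) and of Pfkl and Aldoa (0.54), and the most distant were those of Slc2a3 and Ldha (4.37). None of the 10 genes was among the 3 nearest profiles of another.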

How the data were processed

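Expression was measured on 4 Affymetrix MG_U74Av2 arrays. The deposited values are linear signal intensity per probe set, computed with MAS5 per the submitters' processing notes. Its version and scaling: not given in the sources used here. The authors' deposited intensity values lay 45.5-fold lower in aggregation and 50.3-fold lower in neurospheres than in suspension. Adherent cells shared the scale of suspension, with deposited trimmed means of 1500.84 and 1500.77. No detection calls were used.

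Of 12488 probe sets, 66 controls were left out. Signals were multiplied so that every array's mean, with 2% trimmed off each end, was 500, and 32 was added before log2, which understates differences of dim genes. Probe sets reaching the median of an array on at least 1 array (8031) were kept, and the brightest represented each gene, giving 6843 features. Of these, 6002 were named genes and 841 were probe sets without a single symbol, each its own feature. One limma 3.58.1 model (R 4.3.3) with an intensity trend covered neurospheres, embryoid bodies and adherent cells. The 2 embryoid body arrays gave its 1 residual degree of freedom, so both lone arrays were assumed to vary like them; the prior gave 17.34. The R1 side gave equal weight to the embryoid body mean and the adherent value. Two-sided p-values were adjusted over all features by Benjamini-Hochberg, with a threshold of 0.05. The code was tested on simulated data. Symbols came from the platform annotation, of which 10817 of 10833 were found in RefSeq's gene table. Array scans named no batch beyond 1 fluidics module per array. The deposited scale nevertheless split the arrays, with neurospheres and aggregation low and adherent cells and suspension high. The embryoid body arrays that gave the residual thus lay on either side of that split, and its part in the differences was not tested.

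The members, gene lists and tests were chosen with earlier results of these data known. Named genes were the 10 members, every called gene of the other pathway lists, a fixed set of 10 genes where measured (Gapdh, Eno1 and Slc16a1 were not tested), and the 3 nearest profiles per member. Alternatives covered the added value, filter, scaling, trend, choice of probe set, groups and arrays left out.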

Additional observations from a re-analysis of the deposited data

How the results depend on the processing

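The count of 5 genes lower in neurospheres became 8 after scaling to equal medians and 3 without the intensity trend, and 4 to 4 without either embryoid body array. Slc2a1, Slc2a3 and Hk2 passed in all 15 alternatives, and 0 of the 10 genes rose in any. Over all features, 816 lower and 561 higher became 245 and 219 without the trend, 400 to 451 lower and 269 to 329 higher when 1 embryoid body array was left out, in a fit of 2 groups. For embryoid bodies against adherent cells, 6 lower and 18 higher features became 0 and 0 without the signal filter, 0 and 0 without the trend, 369 and 35 after median scaling, 1 and 1 with the mean of probe sets, and 2 and 2 without _r_at, _f_at and _s_at probe sets. Only the lower count moved past 1.5 times with the stricter filter (11) and quantile normalization (2). Quantile normalization left 12 higher. The cause of these moves was not tested, and 0 of the 10 genes passed in that comparison under any alternative with a test. Values that changed sign were Tpi1 in neurospheres at -0.062 after median scaling and from -0.039 to 0.42 with 1 embryoid body array left out, and, in embryoid bodies, Slc2a1 (-0.061), Slc2a3 (-0.24) and Aldoa (-0.21) after median scaling, Slc2a3 at -0.043 with the mean of probe sets and Pdk1 at 0.054 after quantile normalization. Without probe sets of those 3 classes Aldoa and Pkm had no value, nor had Hif1a and Sdhb among the called genes of other lists. Leaving out an embryoid body array gave values without a test against adherent cells, which also differed in sign: from -0.79 to 0.70 for Pdk1, -0.23 to 0.83 for Slc2a1, -0.14 to 0.90 for Pfkl, -0.15 to 0.48 for Aldoa and -0.0046 to 0.26 for Slc2a3. No paired analysis was possible because only 1 group had more than 1 array. Low signals were not separated from background, which limits the size of differences for genes dim in neurospheres.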
